A study of Homo sapiens with 12 samples.

Results

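Genes for chromatin remodellers, readers of modified histones and enzymes that write or erase histone marks were followed in U937, a human pro-monocytic cell line, after antibodies against the receptor LILRB3. The genes were taken by symbol from the deposited tables: the ARID, SMARC, CHD, BRD, KDM, HDAC and KAT families, nuclear receptor corepressors such as NCOR1, the methyltransferases NSD1 to NSD3, EHMT1, EHMT2, SETDB1, SETDB2 and SETD2, and EP300, CREBBP, EP400, INO80, SRCAP, BPTF, RERE, ATRX and TRRAP. This gave 103 of 27827 symbols, of which 96 were protein genes and 7 were antisense, opposite-strand or pseudogene symbols that carry a family name. The rule reads symbols and no counts.

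All cells had first received 50 ng/mL interferon gamma, which the series' design text gives as the means to raise LILRB3. The treatment of 72 h that followed was with an antagonist antibody to LILRB3, an agonist antibody to it, or an IgG without specificity, at what the labels write as 5 mg/mL. The antagonist and its own IgG group formed set 1, the agonist and its own IgG group formed set 2, and each of the 4 groups held 3 libraries, 12 in all. The cells are a line, and nothing in the labels says that libraries of a group came from separate cultures, so that the p-values given here rest on a spread among libraries that may be technical.

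DNA in the nucleus is wound on histones. ATP-driven remodellers of the SWI/SNF, ISWI, CHD and INO80 families slide, evict or exchange those histones. Acetyltransferases such as p300 and CBP add acetyl groups that bromodomain proteins read, and histone deacetylases, often held in corepressor complexes, take them off. Methyltransferases and demethylases do the same for methyl marks, with KDM1A and KDM6B acting on histone H3. In myeloid cells this machinery is known for its part in differentiation and in the inducible expression of inflammatory and interferon-responsive genes.

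Counts assigned to a named gene in set 1 ranged from 17142362 to 18820312 per IgG library and from 17035334 to 17771980 per antagonist library. Of 12 monocytic marker genes, 10 were above 1 CPM (a count scaled to the library's size), with a summed level of 4693 to 4740 CPM in IgG and 4076 to 4171 CPM in antagonist libraries. No T or NK cell marker (0 of 5) and no erythroid marker (0 of 3) reached 1 CPM, and CD3G, MS4A1, HBB and EPCAM were at 0. Of 4 epithelial and fibroblast markers 1 was above 1 CPM. Their summed level was 0.80 to 1.17 CPM with IgG and 0.51 to 2.14 CPM with the antagonist. The B cell markers (2 of 3 above 1 CPM) gave a summed level of 14.9 to 17.2 CPM with IgG and 15.6 to 17.4 CPM with the antagonist. LILRB3 itself had 2, 1 and 2 counts in the IgG libraries and 5, 2 and 3 in the antagonist libraries. In set 1, IgG library 1 differed most from its group, with a chi-square per degree of freedom over genes of 10.4 and 18.5 against its fellow libraries, where the other pair gave 4.32. The table of set 2 held 904 genes, a selected part of a larger table, so that its calls are a description.

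With the antagonist, 33 of the 93 tested chromatin genes rose (35.5%) and 7 fell (7.53%), against 15.6% and 20.5% of all 13778 tested genes (edgeR quasi-likelihood test, Benjamini-Hochberg adjusted p under 0.05 over all tested genes). Among the largest rises were those of the corepressor RERE, the remodellers EP400, SRCAP and ARID1A and the H3K27 demethylase KDM6B, with log2 fold changes between 0.74 and 0.94. HDAC2, the ISWI motor SMARCA5, the demethylase KDM1A, the SWI/SNF subunits SMARCB1 and SMARCE1, HDAC3 and BRD3OS fell. Fold changes are given on the log2 scale throughout, as antagonist minus IgG, so that a negative value is lower with the antagonist. Changes were small, since 8 members passed a 1.5-fold change and 0 passed a 2-fold change. The median log2 fold change was 0.11 over the tested members and -0.01 over all tested genes. In RNA of whole cultures, fewer cells with a transcript and less of it per cell cannot be told apart. With libraries scaled by their totals in place of TMM, 44 members were higher and 1 lower, against 21.9% and 11.6% of all tested genes, and higher calls made up 65.4% of all calls in place of 43.1%.

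In every antagonist library 43 tested members were higher, and 13 lower, than in every IgG library, where 21.9% and 27.1% of all tested genes were so separated. All 40 members that passed the test were among them. Together the 103 symbols held 0.915%, 0.984% and 0.982% of named counts in the IgG libraries and 1.20%, 1.18% and 1.20% in the antagonist libraries. IgG library 1 was the lowest of these 6 values, and it was also the lowest IgG library in 22 of the 33 members that rose (66.7%), as in 60.5% of all genes that rose. Without that library 36 members were called higher and 7 lower. Leaving out other libraries gave 29 higher and 2 lower without IgG library 2, 33 and 3 without IgG library 3, 20 and 4 without antagonist library 1, 26 and 6 without antagonist library 2, and 19 and 1 without antagonist library 3. Of all tested genes, 15.6% were higher and 20.5% lower with every library kept. Without IgG library 1, 2 or 3 these shares were, in that order, 17.4% and 18.0%, 13.4% and 14.1%, and 17.6% and 18.5%. Without antagonist library 1, 2 or 3 they were 9.83% and 12.7%, 12.7% and 17.1%, and 10.2% and 12.7%.

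**Figure D1:**
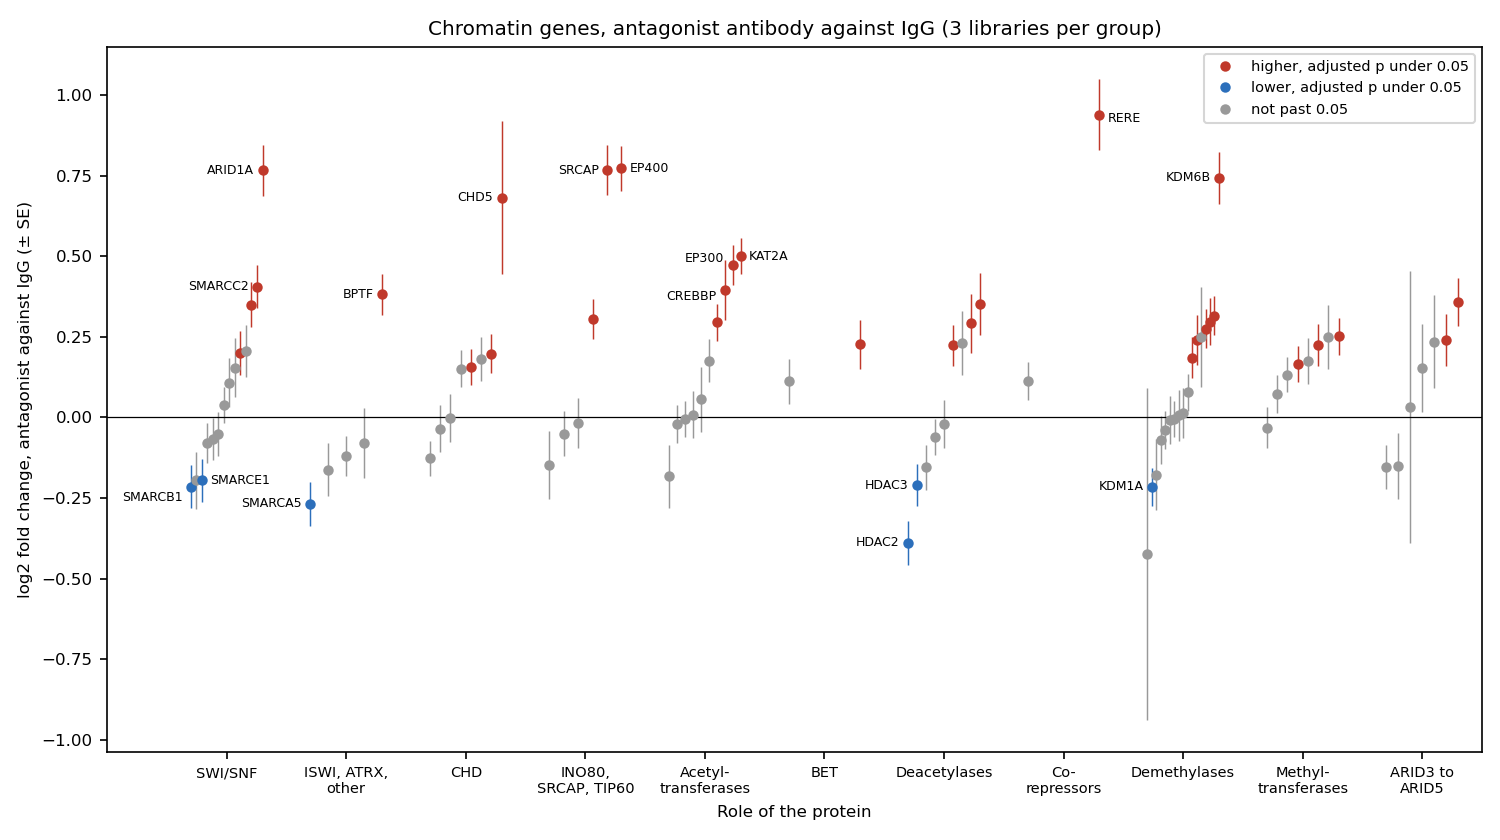
Log2 fold change of tested protein genes with the antagonist against IgG (vertical axis, with standard error), sorted within its role (horizontal axis); red points passed an adjusted p of 0.05 as higher, blue points as lower and grey points did not pass. The corepressor RERE lies highest at 0.94, and HDAC2 is the lowest blue point at -0.39.

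The shares of all tested genes that rose (15.6%) and fell (20.5%) stand beside every count by role below, and each role's counts under other settings are given as higher and then lower. How firmly the calls stood was read from 10 other settings: library totals in place of TMM scaling, DESeq2, no filter on low counts, removal of transcript length and GC trends, and the omission of each of 6 libraries. In the main setting and all 10 others, 14 members were called higher, among them RERE, EP400, SRCAP, ARID1A, KDM6B, KAT2A, EP300, SMARCC2, BPTF, ARID3B, KDM3B, KAT6A and NSD2. HDAC2 was the member called lower in all of them. Transcript length and GC content moved with the fold change, as given further on, and with those trends removed 15 members were higher and 15 lower, against 16.7% and 20.3% of 13457 tested genes.

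The sequences before a RefSeq start of ARID1A and EP400, which rose, and of HDAC2 and SMARCA5, which fell, are printed as examples. These 4 do not stand for their groups, whose GC content is given below. The trends given further on are those of the transcripts, not of these stretches. Each is the 250 bases before the first listed RefSeq start on GRCh38.p14, on the gene's strand. Capitals mark where a GC box (GGGCGG) or an ETS-type motif (CCGGAAG) matched on either strand. The GENCODE gene intervals given below begin elsewhere. The windows of ARID1A and HDAC2, nearly all of that of SMARCA5 and the last bases of that of EP400 lie inside them. The windows lie at chr1:26695765-26696014 (plus strand), chr12:131949692-131949941 (plus), chr6:113971149-113971398 (minus) and chr4:143513452-143513701 (plus).
ARID1A: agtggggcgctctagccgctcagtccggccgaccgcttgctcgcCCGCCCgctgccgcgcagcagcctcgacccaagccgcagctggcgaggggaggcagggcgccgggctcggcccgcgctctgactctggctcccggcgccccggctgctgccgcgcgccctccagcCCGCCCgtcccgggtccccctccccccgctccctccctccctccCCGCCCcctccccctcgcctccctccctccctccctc
EP400: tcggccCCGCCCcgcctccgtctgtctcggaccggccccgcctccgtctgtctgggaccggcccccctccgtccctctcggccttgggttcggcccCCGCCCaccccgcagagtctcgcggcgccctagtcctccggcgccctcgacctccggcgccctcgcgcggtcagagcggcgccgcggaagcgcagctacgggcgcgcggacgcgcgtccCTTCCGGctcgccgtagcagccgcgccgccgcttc
HDAC2: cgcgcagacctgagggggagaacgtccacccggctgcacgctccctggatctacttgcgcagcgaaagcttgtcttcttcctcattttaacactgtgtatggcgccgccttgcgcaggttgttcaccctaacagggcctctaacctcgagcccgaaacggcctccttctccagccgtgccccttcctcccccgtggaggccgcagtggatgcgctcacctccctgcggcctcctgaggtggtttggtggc
SMARCA5: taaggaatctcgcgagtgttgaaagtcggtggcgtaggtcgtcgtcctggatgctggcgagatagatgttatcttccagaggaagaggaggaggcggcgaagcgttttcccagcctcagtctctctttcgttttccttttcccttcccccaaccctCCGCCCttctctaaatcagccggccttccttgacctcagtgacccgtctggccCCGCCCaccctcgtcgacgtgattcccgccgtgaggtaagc
The GC content of these stretches was 80.4% for ARID1A, 79.2% for EP400, 63.2% for HDAC2 and 58.0% for SMARCA5. GC boxes numbered 3, 2, 0 and 2, and the ETS-type motif matched in EP400 alone of these 4.

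Promoter windows of 300 bases, 250 before and 50 after the start, were matched by symbol for 82 of the 103 members, without an entry for RERE. Their median GC content was 72% for matched members that rose, 64% for those that fell and 65.3% for tested genes. Single windows overlapped between the groups. Among those that rose, ARID1B was at 37.7% and SETDB1 at 49%, and among those that fell, BRD3OS was at 74.3% and HDAC3 at 74%. A GC box was present in 56 of the 82 (68.3%), in 12 of the 21 matched members that rose (57.1%), in 6 of the 7 that fell (85.7%), in 69.2% of 10446 windows of tested genes and in 44.6% of all 27305 windows. The ETS-type motif was in 15.9% of member windows, 19.1% of windows of tested genes and 10.7% of all. The gamma-activated site TTCNNNGAA, found in many genes that respond to interferon gamma, was in 2 member windows (2.44%), against 6.13% of windows of tested genes and 7.88% of all. CCAAT was in 26.8% of member windows and 36.3% of windows of tested genes, and the E-box CACGTG in 9.76% and 10.3%. Motifs were counted on both strands, they did not have to be free of overlap with each other, and a match is a description of letters, not a site.

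Corepressors recruit deacetylases to DNA-bound factors. RERE, an atrophin-family corepressor that binds histone deacetylases (chromosome 1, 8352397 to 8817643, minus strand, GENCODE v29 on GRCh38), had 84.6, 112 and 121 CPM with IgG and 201, 200.4 and 207 CPM with the antagonist. All antagonist libraries lay above all IgG libraries, and IgG library 1 was the lowest. Its log2 fold change was 0.94 ± 0.11 (SE), adjusted p = 0.000375. NCOR1, which bridges unliganded nuclear receptors to HDAC3, had 164, 180.2 and 177 CPM with IgG and 183, 193 and 188 CPM with the antagonist, groups that do not overlap but a difference of 0.11 ± 0.06 (SE), adjusted p = 0.148, which did not pass. After trend removal RERE stood at 0.70 and NCOR1 at -0.04.

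The deacetylases, which remove the acetyl groups, were divided: of 9 tested, 3 rose and 2 fell, with a median of -0.02. The counts were 0 and 2 with trends removed, 4 and 1 with library totals, 1 and 1 without antagonist library 1 and 0 and 1 without antagonist library 3. HDAC2, a class I enzyme of the NuRD and SIN3 complexes (chromosome 6, 113933028 to 114011308, minus strand), had 184, 159.7 and 165 CPM with IgG and 131, 135 and 123 CPM with the antagonist. Each antagonist library lay below each IgG library, with a log2 fold change of -0.39 ± 0.07 (SE), adjusted p = 0.00115. Its close paralogue HDAC1 had 182, 169 and 172 CPM with IgG and 166, 171 and 164 CPM with the antagonist, overlapping groups that differed by -0.06 ± 0.06 (SE), adjusted p = 0.427. Per kilobase of the longest transcript, HDAC1 was at 72.4 ± 2.96 RPKM (SD, n = 3) with IgG and HDAC2 at 17.2 ± 1.29 RPKM. Their mean CPM with IgG were close (174 and 170), while their longest transcripts differ in length (2409 and 9874 bases). Which transcripts are expressed was not examined, so which of the pair is the more abundant cannot be told. HDAC3, the catalytic subunit of NCOR1 complexes, had 66.3, 74.0 and 71.1 CPM with IgG and 58.4, 62.6 and 61.6 CPM with the antagonist, a change of -0.21 ± 0.07 (SE), adjusted p = 0.0246. That call held in 3 of the 10 other settings and was lost with library totals (-0.13), with DESeq2 (-0.19), with trends removed, and without IgG library 2 or 3 or antagonist library 1 or 3 (-0.22 to -0.16). Of the class II and IV enzymes, HDAC7 had 77.8, 99.2 and 106 CPM with IgG and 117, 117 and 127 CPM with the antagonist and a log2 fold change of 0.35 ± 0.10 (SE), adjusted p = 0.016, lost without antagonist library 3 (0.31). HDAC11 (0.29 ± 0.09) lost its call without IgG library 3 or any 1 antagonist library (0.26 to 0.30). The cytoplasmic tubulin deacetylase HDAC6 (0.22 ± 0.06) lost it without antagonist library 1 or 3 (0.21 in both). HDAC5, at 175, 201 and 216 CPM with IgG and 196, 187 and 200.2 CPM with the antagonist, did not pass (-0.02 ± 0.07), and with trends removed it was called lower at -0.26. HDAC4 and HDAC9 stayed below the count filter, with 15 and 29 counts summed over the IgG libraries and 9 and 11 over the antagonist libraries.

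SWI/SNF complexes use SMARCA4 or SMARCA2 as motor, and ARID1A, ARID1B or ARID2 as the large DNA-binding subunit that sets the type of complex. Of 14 tested genes, 4 rose and 2 fell, with a median of 0.07. With trends removed the counts were 2 and 4 and the median -0.03, and with library totals the counts were 6 and 0. ARID1A lies at chromosome 1, 26693236 to 26782110, plus strand, and the window printed above precedes a RefSeq start inside that interval. ARID1A had 229.9, 276 and 276 CPM with IgG and 448, 412 and 471 CPM with the antagonist. The lowest antagonist library was well above the highest IgG library, and the log2 fold change was 0.77 ± 0.08 (SE), adjusted p = 0.000117. ARID1B had 242, 279 and 287 CPM with IgG and 349, 329 and 351 CPM with the antagonist and rose by 0.35 ± 0.07 (SE), adjusted p = 0.00244. Its groups did not overlap, but after trend removal it stood at 0.07 and did not pass, whereas ARID1A stood at 0.48 and passed. ARID2, of the PBAF type, had 26.8, 25.6 and 26.6 CPM with IgG and 30.2, 32.9 and 28.0 CPM with the antagonist and did not pass (0.21 ± 0.08, adjusted p = 0.0652).

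SMARCC2, a scaffold subunit, had 82.3, 88.0 and 96.2 CPM with IgG and 114, 115 and 123 CPM with the antagonist, a log2 fold change of 0.41 ± 0.07 (SE), adjusted p = 0.00096. Its paralogue SMARCC1 had overlapping groups at 229.8, 236 and 235 CPM with IgG and 239, 248 and 233 CPM with the antagonist and did not pass (0.04 ± 0.06). The core subunit SMARCB1 had 95.8, 94.8 and 106 CPM with IgG and 80.6, 89.7 and 85.3 CPM with the antagonist and changed by -0.21 ± 0.07 (SE), adjusted p = 0.0248, with separated groups. That call was lost with library totals (-0.13), with DESeq2 (-0.20) and without IgG library 3 or antagonist library 1 or 3 (-0.22 to -0.15), and the value was -0.43 with trends removed. SMARCE1 (-0.19 ± 0.07) lost its call with library totals (-0.11), with DESeq2 (-0.18) and without IgG library 1, 2 or 3 or antagonist library 1 or 3 (-0.22 to -0.14). BRD9, the bromodomain subunit of the non-canonical complex (0.20 ± 0.07), lost its own without IgG library 2 or 3 or any 1 antagonist library (0.17 to 0.22). The BRD9 call was also lost with DESeq2 (0.22), with no filter on low counts (0.19) and with trends removed (0.08).

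Neither motor passed the test. SMARCA4 had 269.6, 333 and 358 CPM with IgG and 357, 337 and 375 CPM with the antagonist, with overlapping groups and a difference of 0.15 ± 0.09 (SE), adjusted p = 0.209. SMARCA2 had 86.0, 104 and 105 CPM with IgG and 102, 105 and 110.0 CPM with the antagonist, overlapping too, at 0.11 ± 0.08 (SE), adjusted p = 0.29. Per kilobase SMARCA4 was the more abundant with IgG, at 55.3 ± 7.89 RPKM (SD, n = 3) against 13.9 ± 1.5 RPKM. With trends removed the sign for SMARCA4 turned, to -0.10, and it was called lower. SMARCD2 was called lower there as well, at -0.13.

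**Figure D2:**
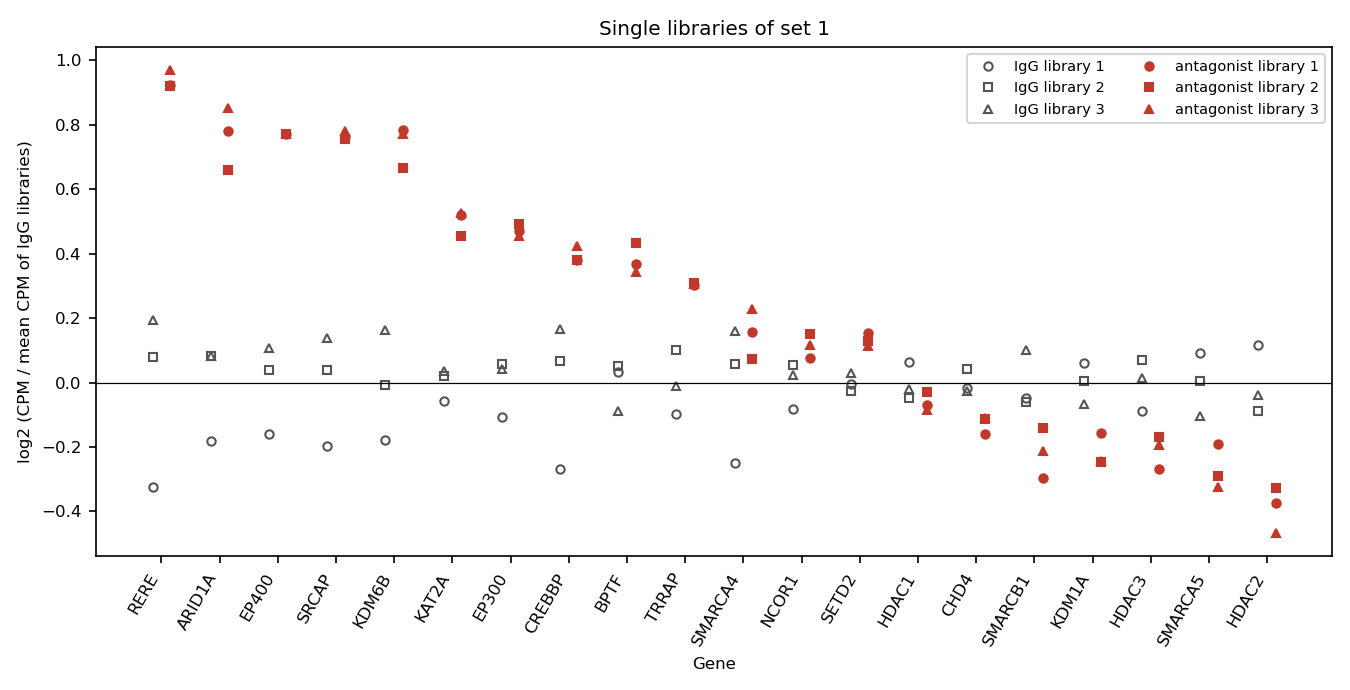
Level of 20 named members in each library of set 1, as log2 of CPM over the mean CPM of the IgG libraries (vertical axis); open grey symbols are IgG libraries and filled red symbols antagonist libraries, with the library number given by the shape. The antagonist symbols lie above all IgG symbols from RERE to TRRAP and at NCOR1 and SETD2, overlap them at SMARCA4 and HDAC1, and lie below them from CHD4 to HDAC2.

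In the INO80, SRCAP and TIP60 group, whose complexes exchange the histone variant H2A.Z or acetylate H4 and H2A, 3 of 6 rose, none fell, and the median was 0.14 (2 and 1 with trends removed, 3 and 0 with library totals). EP400, the motor of the TIP60 complex (chromosome 12, 131949920 to 132081102, plus strand), had 88.1, 101 and 106 CPM with IgG and 168, 168 and 168 CPM with the antagonist. The antagonist libraries nearly coincided, above every IgG library, with a log2 fold change of 0.77 ± 0.07 (SE), adjusted p = 7e-05. SRCAP, the motor of the complex that deposits H2A.Z (chromosome 16, 30698209 to 30741409, plus strand), had 128, 151 and 162 CPM with IgG and 249, 248 and 252 CPM with the antagonist, a rise of 0.77 ± 0.08 (SE), adjusted p = 0.000106. TRRAP, a giant scaffold shared by TIP60 and SAGA, had 179.7, 206 and 191 CPM with IgG and 238, 238 and 238 CPM with the antagonist. It rose by 0.31 ± 0.06 (SE), adjusted p = 0.00269. With trends removed, EP400 stood at 0.44 and SRCAP at 0.42, both still called, while TRRAP came to 0.00 and was not. The motor INO80 (-0.05 ± 0.07), the acetyltransferase KAT5 (-0.15 ± 0.10) and BRD8 (-0.02 ± 0.08) did not pass in the main fit, and all 3 had overlapping groups.

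Among acetyltransferases 4 of 10 rose and none fell, with a median of 0.12 (3 and 1 with trends removed, 5 and 0 with library totals). EP300 encodes p300 (chromosome 22, 41091786 to 41180079, plus strand) and had 69.2, 77.5 and 76.6 CPM with IgG and 103, 105 and 102 CPM with the antagonist, a log2 fold change of 0.47 ± 0.06 (SE), adjusted p = 0.000304. CREBBP encodes its paralogue CBP (chromosome 16, 3725054 to 3880726, minus strand) and had 107, 135 and 145 CPM with IgG and 168, 168 and 173 CPM with the antagonist. Its groups were separated as well, with IgG library 1 the lowest, and the change was 0.40 ± 0.09 (SE), adjusted p = 0.00638. With trends removed EP300 was at 0.23 and still called, while CREBBP was at 0.09 and was not. KAT2A, the SAGA acetyltransferase GCN5, had 121, 127 and 129 CPM with IgG and 179.9, 172 and 181 CPM with the antagonist, a rise of 0.50 ± 0.06 (SE), adjusted p = 0.000175. Its paralogue KAT2B, or PCAF, had 14.6, 15.9 and 15.1 CPM with IgG and 14.5, 17.5 and 15.4 CPM with the antagonist and did not pass (0.06 ± 0.10). KAT6A, which acetylates H3K23 and is a fusion partner in myeloid leukemia, had 83.3, 82.5 and 85.1 CPM with IgG and 105, 104 and 98.9 CPM with the antagonist and rose by 0.30 ± 0.06 (SE), adjusted p = 0.00203. Its paralogue KAT6B (0.01 ± 0.07), and KAT7 (-0.02 ± 0.06) and KAT8 (-0.01 ± 0.06), had overlapping groups and did not pass.

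The BET proteins bind acetylated histones and couple them to elongation. BRD2 had 23.5, 24.2 and 23.4 CPM with IgG and 26.5, 28.5 and 28.2 CPM with the antagonist and rose by 0.23 ± 0.08 (SE), adjusted p = 0.0333, a call held in 2 of 10 other settings and lost without IgG library 2 or 3 or any 1 antagonist library (0.21 to 0.26). BRD3 had 58.1, 67.7 and 65.9 CPM with IgG and 67.9, 67.2 and 72.0 CPM with the antagonist, with overlapping groups (0.11 ± 0.07, adjusted p = 0.239). None of the 4 partner genes of this group (CDK9, CCNT1, CCNT2 and HEXIM1, which form or regulate the elongation kinase P-TEFb) passed, with log2 fold changes between -0.05 and 0.04.

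ISWI motors space nucleosomes, and of 5 tested genes in their group with ATRX and related helicases 1 rose and 1 fell (1 and 2 with trends removed, 1 and 0 with library totals). BPTF, the histone-reading subunit of NURF (chromosome 17, 67825524 to 67984378, plus strand), had 64.2, 64.9 and 59.0 CPM with IgG and 81.0, 84.6 and 79.5 CPM with the antagonist, a rise of 0.38 ± 0.06 (SE), adjusted p = 0.000915. SMARCA5 (chromosome 4, 143513463 to 143557486, plus strand) encodes an ISWI motor of several complexes. It had 87.8, 82.6 and 76.7 CPM with IgG and 72.2, 67.3 and 65.7 CPM with the antagonist. The antagonist libraries lay below the IgG libraries, with a change of -0.27 ± 0.07 (SE), adjusted p = 0.00929. That call was lost with library totals (-0.19) and without IgG library 2 (-0.25) or antagonist library 3 (-0.24). The other ISWI motor, SMARCA1, was at 0 counts in all 6 libraries.

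Of 8 tested CHD helicases 3 rose and none fell, with a median of 0.15. With trends removed 0 rose and 1 fell, with a median of -0.03. The rises numbered 5 with library totals and 0 without any 1 antagonist library. CHD4, the motor of NuRD and the most abundant CHD gene per kilobase (68.8 ± 1.78 RPKM with IgG, SD, n = 3), had 454, 472 and 450.4 CPM with IgG and 411, 425 and 425 CPM with the antagonist. Its antagonist libraries all lay below the IgG libraries, but the difference of -0.13 ± 0.05 (SE), adjusted p = 0.0898 did not pass. With trends removed it was called lower at -0.29. CHD2 had 152, 142 and 150.1 CPM with IgG and 162, 166 and 167 CPM with the antagonist and rose by 0.16 ± 0.06 (SE), adjusted p = 0.0439. CHD6 had 67.2, 64.8 and 63.8 CPM with IgG and 73.9, 78.0 and 72.7 CPM with the antagonist and rose by 0.20 ± 0.06 (SE), adjusted p = 0.0228. Both calls were lost without IgG library 2 or 3 or any 1 antagonist library (0.14 to 0.18 for CHD2 and 0.17 to 0.22 for CHD6), and with trends removed CHD2 came to 0.00. CHD5, mainly a neuronal gene, was near the filter at 1.45, 2.91 and 2.33 CPM with IgG and 3.20, 3.97 and 3.47 CPM with the antagonist, with a change of 0.68 ± 0.24 (SE), adjusted p = 0.0403 that was lost without IgG library 1 or any 1 antagonist library (0.46 to 0.75).

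Demethylases were the largest role, with 17 tested genes, of which 6 rose and 1 fell, for a median of 0.01. The counts were 2 and 2 with trends removed, 6 and 0 with library totals and 3 and 0 without antagonist library 3. KDM6B, also called JMJD3, removes the repressive H3K27 methyl mark and is an inducible gene in macrophages (chromosome 17, 7839904 to 7854796, plus strand). It had 53.8, 60.5 and 68.1 CPM with IgG and 105, 96.5 and 104 CPM with the antagonist, every antagonist library above every IgG library, with a log2 fold change of 0.74 ± 0.08 (SE), adjusted p = 0.000145. Its paralogue KDM6A, or UTX, had 29.8, 30.1 and 31.2 CPM with IgG and 28.9, 33.2 and 29.9 CPM with the antagonist, overlapping groups and a difference of 0.01 ± 0.08 (SE), adjusted p = 0.909. KDM1A, or LSD1, which removes H3K4 methyl groups within the CoREST complex and is a drug target in myeloid leukemia (chromosome 1, 23019443 to 23083689, plus strand), had 233, 225 and 214 CPM with IgG and 201, 189 and 189 CPM with the antagonist. It changed by -0.22 ± 0.06 (SE), adjusted p = 0.0136 with separated groups, a call lost without IgG library 2 or antagonist library 2 or 3 (-0.20 in each) and with library totals (-0.14). KDM3B had 97.5, 89.5 and 92.4 CPM with IgG and 112, 119 and 117 CPM with the antagonist, a rise of 0.32 ± 0.06 (SE), adjusted p = 0.00178, and its paralogue KDM3A did not pass (0.01 ± 0.08). KDM2A (0.28 ± 0.06 (SE), adjusted p = 0.00456) and KDM2B (0.30 ± 0.07 (SE), adjusted p = 0.00734), H3K36 demethylases that bind CpG islands, both rose, the latter with its call lost without antagonist library 3 (0.24). With trends removed, KDM6B (0.44) and KDM3B (0.16) were still called higher and KDM2A (0.11) and KDM2B (0.06) were not. KDM4E was at 0 counts, and the Y-linked KDM5D was below the filter.

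Among the 8 methyltransferases 3 rose, none fell, and the median was 0.17. The counts were 1 and 1 with trends removed, 6 and 0 with library totals and 1 and 0 without antagonist library 1. NSD2, which writes H3K36 dimethylation, had 205, 222 and 223 CPM with IgG and 257, 262 and 255 CPM with the antagonist and rose by 0.25 ± 0.06 (SE), adjusted p = 0.00543. NSD3 had 86.4, 86.3 and 80.3 CPM with IgG and 105, 97.0 and 93.9 CPM with the antagonist and rose by 0.23 ± 0.06 (SE), adjusted p = 0.016, lost without antagonist library 1 (0.18), and NSD1 did not pass (0.07 ± 0.06) but was called lower with trends removed (-0.15). SETDB1, an H3K9 methyltransferase, had 90.9, 89.7 and 94.5 CPM with IgG and 105, 103 and 99.99 CPM with the antagonist and rose by 0.17 ± 0.06 (SE), adjusted p = 0.0381, a call lost without IgG library 2 or any 1 antagonist library (0.15 to 0.18). The SETDB1 call was also lost with no filter on low counts and with trends removed. SETD2, which writes H3K36 trimethylation, had 113, 111 and 115 CPM with IgG and 126, 124 and 122 CPM with the antagonist. Its groups were separated, but the difference of 0.13 ± 0.05 (SE), adjusted p = 0.0747 did not pass.

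The ARID3 to ARID5 genes encode DNA-binding proteins outside SWI/SNF, and 2 of 7 rose (1 of 7 with trends removed). ARID3B had 31.2, 35.8 and 34.3 CPM with IgG and 44.3, 43.1 and 42.4 CPM with the antagonist, a rise of 0.36 ± 0.07 (SE), adjusted p = 0.00276. ARID3A had 105, 123 and 126 CPM with IgG and 146, 127 and 146 CPM with the antagonist and rose by 0.24 ± 0.08 (SE), adjusted p = 0.0326, a call lost without antagonist library 1 or 3 (0.21 in both) and with trends removed, where it stood at 0.01. Of the 7 antisense, opposite-strand and pseudogene symbols, 3 were tested and BRD3OS fell (-0.38 ± 0.12 (SE), adjusted p = 0.0305; lost with library totals, -0.29, and without IgG library 2 or 3 or antagonist library 2 or 3, -0.37 to -0.31). Exons of 46 of the 103 members overlapped a gene on the opposite strand and those of 22 a gene on the same strand in GENCODE v29. Whether the counting used strand is not given in the sources used here, so reads of such pairs cannot be told apart. RERE, CREBBP, KDM6B, KDM1A, ARID3B, KDM3B, KAT6A and NSD2 had no such overlap. ARID1A, EP400, HDAC2, SMARCA5, SMARCB1 (with DERL3) and SMARCC2 (with MYL6) overlapped a gene on the opposite strand. BPTF and KAT2A overlapped a gene on the same strand, and SRCAP and EP300 had overlaps on both, so these calls carry that limit.

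Other subunits of the same complexes were listed apart from the members. Of 132 tested partner genes 21 rose (15.9%) and 31 fell (23.5%), with a median of -0.01, against the 15.6% and 20.5% of all tested genes. The falls among partners numbered 12 with library totals (9.09%, against 11.6% of all tested genes). They numbered between 14 and 28 when 1 library was left out, the lowest without antagonist library 3 (10.6%, against 12.7% of all tested genes). With trends removed 20 rose and 31 fell. In the INO80, SRCAP and TIP60 complexes 11 of 23 partners fell and 2 rose, with a median of -0.20, and the falls numbered 8 with trends removed, 5 with library totals and 7, 7 and 6 without IgG library 1, antagonist library 1 and antagonist library 3. EPC2, a scaffold of TIP60, had 28.1, 27.1 and 23.7 CPM with IgG and 18.1, 21.5 and 18.9 CPM with the antagonist and changed by -0.43 ± 0.10 (SE), adjusted p = 0.00446. The AAA ATPase RUVBL1, shared by all 3 complexes, had 64.5, 67.1 and 57.4 CPM with IgG and 49.7, 50.2 and 52.3 CPM with the antagonist and a change of -0.31 ± 0.07 (SE), adjusted p = 0.00508. NFRKB, an INO80 subunit, had 39.8, 42.8 and 42.0 CPM with IgG and 55.8, 58.8 and 56.1 CPM with the antagonist and rose by 0.46 ± 0.06 (SE), adjusted p = 0.000433. The motors EP400 and SRCAP were higher in the same libraries. Whether the partner genes and the members differ was not tested, and RUVBL1 was named after its values were seen.

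Partners of NuRD, the complex of CHD4 with HDAC1 and HDAC2, gave 2 rises and 3 falls of 10 (3 and 2 with library totals). MBD2, its methyl-DNA reader, had 75.4, 67.1 and 71.1 CPM with IgG and 55.5, 53.1 and 54.5 CPM with the antagonist and changed by -0.39 ± 0.07 (SE), adjusted p = 0.000951. CDK2AP1 had 19.8, 16.2 and 17.1 CPM with IgG and 12.6, 12.2 and 14.7 CPM with the antagonist and changed by -0.43 ± 0.11 (SE), adjusted p = 0.00954, lost without antagonist library 1 (-0.40). Among corepressor partners 2 of 17 rose and 4 fell, against 5 and 1 with library totals and 2 and 2 with DESeq2, with SIN3B, a scaffold for HDAC1 and HDAC2, at 0.52 ± 0.08 and SAP18 at -0.36 ± 0.07. Of 12 SWI/SNF partners 1 rose, SS18L1 (0.33 ± 0.07), and 2 fell (3 with trends removed, 0 with library totals or DESeq2). Of 7 ISWI partners BAZ2A rose (0.49 ± 0.06) and POLE3 fell (-0.34 ± 0.06). Of 24 SAGA, ATAC and MYST partners 3 rose and 2 fell (4 and 4 with trends removed, 5 and 1 with library totals), with ING5 (0.44 ± 0.10) and BRPF3 (0.38 ± 0.09) the largest rises.

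Transcript length and GC content moved with the antagonist's fold changes. Over all 13457 tested genes with a length, Spearman's rho of the log2 fold change was 0.23 with the length of the longest transcript and 0.28 with its GC content. Over the 93 tested members it was 0.30 and 0.51. These are descriptions across genes of the same 6 libraries, and genes are not independent replicates. The members' transcripts are long, with a median of 6139 bases against 3443 for all, and their median GC content was 50.9% against 49.4%. Members that rose had a median length of 7169 bases and 55.0% GC, those that fell 5722 bases and 50.8% GC, and those that did not pass 5689 bases and 47.2% GC.

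**Figure D3:**
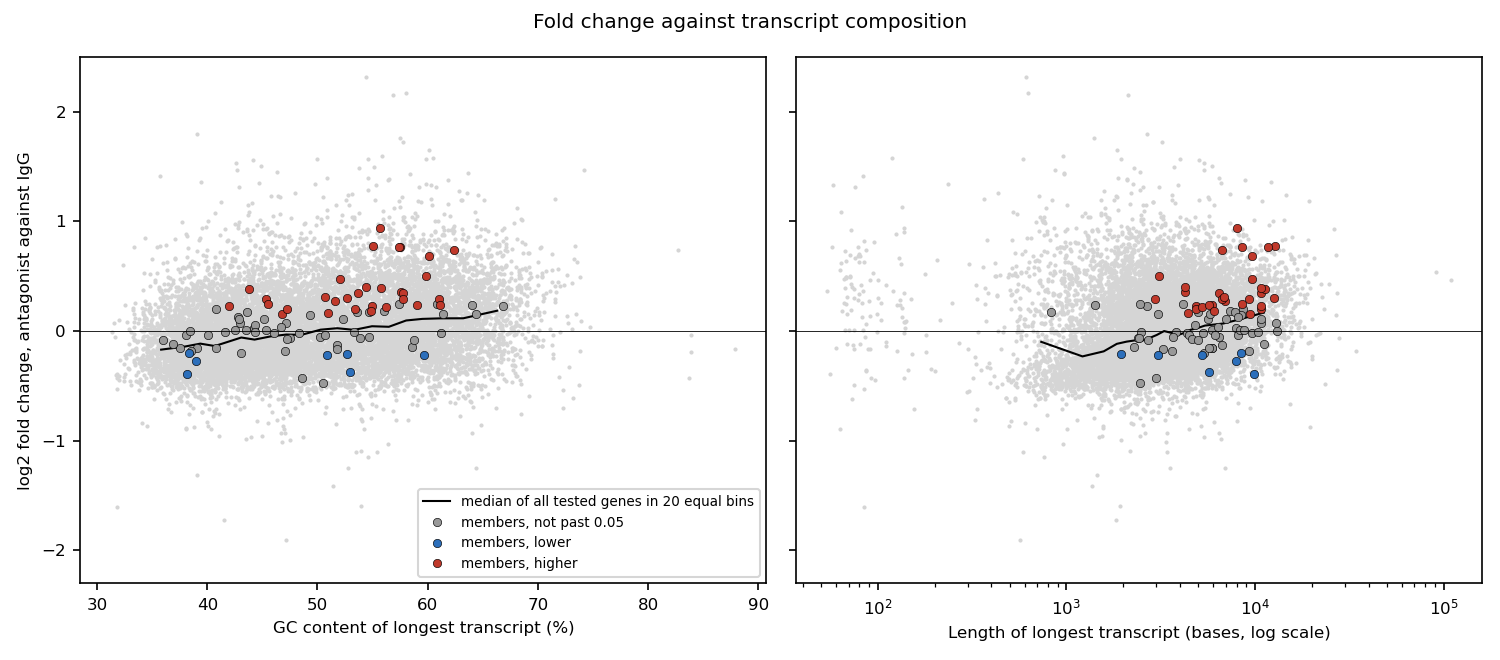
Log2 fold change with the antagonist against IgG (vertical axes) plotted against GC content in percent (left) and length in bases on a log scale (right) of the longest transcript; light grey dots are all tested genes, the black line is their median in 20 bins of equal size, and outlined points are members, red if higher, blue if lower and dark grey if not past 0.05. The median line climbs with GC content, and the red points have a median GC content of 55.0% against 47.2% for the dark grey ones.

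A smooth trend of the fold change on length and GC was therefore estimated over all genes and removed. The members' median fell from 0.11 to 0.00, and rho over the members became 0.06 with length and 0.35 with GC. Of the 33 members that had risen, 15 were still called higher and 31 kept a positive value, CHD2 and KDM4B being the exceptions at values just below zero. Of the 7 that had fallen, 6 were still called lower, at -0.43 for both HDAC2 and SMARCB1, -0.52 for BRD3OS, -0.27 for SMARCA5, -0.21 for SMARCE1 and -0.19 for KDM1A, while HDAC3 (-0.10) was not. Newly called lower were 9 members, CHD4, HDAC5, INO80, KAT7, ATRX, NSD1, KDM5B, SMARCA4 and SMARCD2, between -0.29 and -0.10. The removal takes out any change that goes with length or GC, whatever its source.

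**Figure D4:**
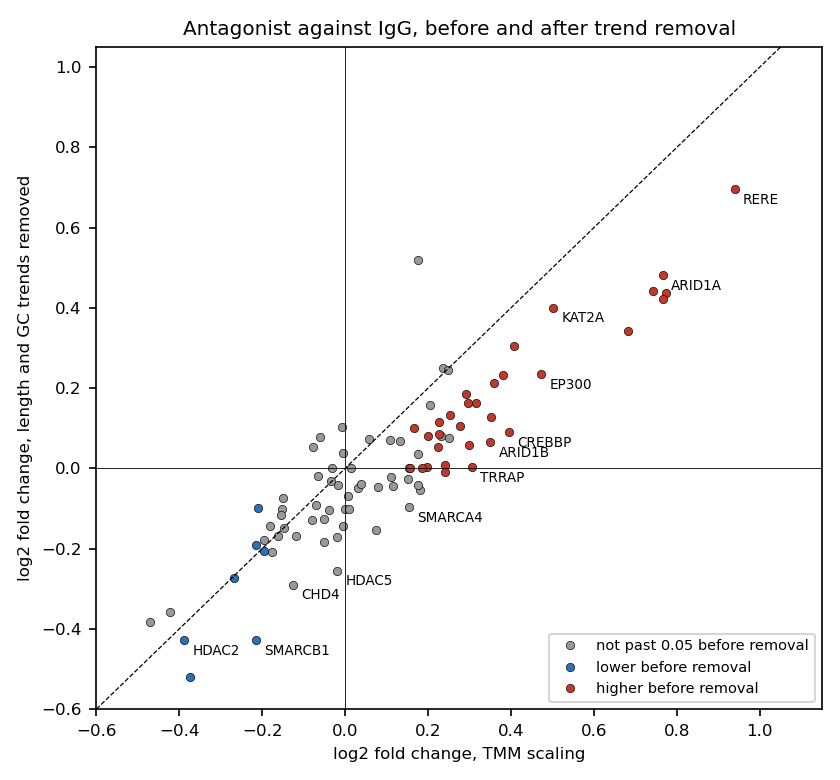
Log2 fold change of tested members with TMM scaling (horizontal axis) and with length and GC trends taken out (vertical axis), with the dashed line marking equal values; red, blue and grey mark members higher, lower or not past 0.05 before removal. Red points lie below the line, and RERE, ARID1A and KAT2A keep values of at least 0.40 after removal, while TRRAP comes to 0.00.

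For the agonist, 12 members were in the table of set 2, all 12 of which were lower with the agonist than with its IgG and had groups that did not overlap. Of the 904 genes listed there, 44.2% were called lower and 55.6% higher, and 44.1% were lower with groups that did not overlap. Listing there goes with change, so that the calls say nothing of the symbols that are not in it. Values are CPM of the listed genes and cannot be compared with the CPM of set 1. ARID1A had 1093, 1163 and 1169 with IgG and 727, 967 and 912 with the agonist. Agonist library 1 was the lowest, and it stood apart from the other agonist libraries over all listed genes, with a chi-square per degree of freedom of 24.9 and 26.6 against them, where the other pair gave 3.74. The log2 fold change of ARID1A was -0.39 ± 0.09 (SE), adjusted p = 0.00145. Without that library the 12 members were still all called lower, between -0.92 and -0.22, as were 400 of the 904 listed genes.

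RERE had 632, 622 and 620.4 with IgG and 423, 483 and 514 with the agonist, a change of -0.40 ± 0.08 (SE), adjusted p = 0.0006. Every agonist library lay below every IgG library. KAT14, an acetyltransferase subunit of the ATAC complex, had 76.1, 64.8 and 64.5 and 39.2, 36.1 and 36.3, a change of -0.88 ± 0.14 (SE), adjusted p = 0.000285. Of the 12 it had the largest fall, in a gene that shares exons with PET117 on the same strand. ARID1A, ARID1B, ARID3A, BRD3, CHD4, KDM1A, NSD2 and SMARCD2 lay between -0.39 ± 0.09 and -0.29 ± 0.06. With length and GC trends removed, 11 of the 12 were still called lower, against 39.2% of listed genes, and NSD2 was not, at -0.01. The median of all listed genes moved from 0.19 to 0.01 under that removal, and to 0.09 with DESeq2 size factors, so that the zero of these fold changes is uncertain.

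The difference between the antibodies' effects was tested as the interaction of set and treatment over 867 shared genes, of which 28.0% were called with the antagonist effect higher and 30.9% with it lower. For the members, 11 of 12 were called, all with the antagonist effect higher. All 12 are listed as lower with the agonist, which by itself favours that direction, and of the shared genes called lower with the agonist 59.6% had the antagonist effect called higher. The difference was 1.34 ± 0.14 (SE), adjusted p = 3.93e-06, for RERE, and 1.16 ± 0.13 (SE), adjusted p = 8.15e-06, for ARID1A. For both genes the antagonist libraries were above their IgG libraries and the agonist libraries below theirs. ARID1B (0.68), ARID3A (0.56) and NSD2 (0.54) had the same opposed directions at smaller size in the main fits. With trends removed these 3 differences were 0.28, 0.34 and 0.15. There the antagonist changes of ARID1B (0.07) and ARID3A (0.01) and the agonist change of NSD2 (-0.01) no longer passed, and the antagonist call of ARID3A also rested on antagonist libraries 1 and 3.

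In BRD3 (0.48), KAT14 (0.70), SMARCD2 (0.25) and CHD4 (0.20) the antagonist change had not passed, and the difference comes with a fall in the agonist set. CHD4 lay at the threshold (adjusted p = 0.0497). Its call was lost without IgG library 3, any 1 antagonist library, any 1 IgG library of set 2 or agonist library 1, and the sign turned with trends removed (-0.07). SMARCD2 lost its call without antagonist library 1 or 3, IgG library 3 of set 2 or agonist library 3. KDM1A was lower in both sets, by -0.22 ± 0.06 with the antagonist and -0.32 ± 0.05 with the agonist, and the difference of 0.11 ± 0.07 (SE), adjusted p = 0.227, did not pass. It did pass with library totals, DESeq2 size factors or trends removed.

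**Figure D5:**
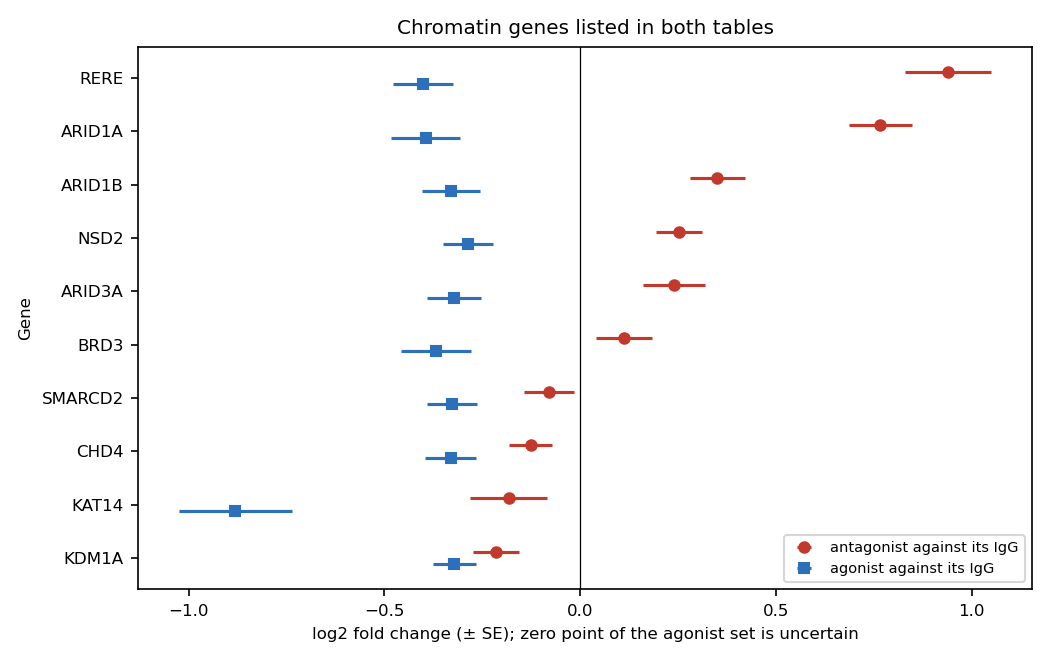
Log2 fold change with standard error (horizontal axis) of 10 members listed in both tables (vertical axis), for the antagonist (red circles) and the agonist (blue squares), each against its own IgG. All blue squares lie at or below -0.29, while the red circles run from -0.22 for KDM1A to 0.94 for RERE.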

How the data were processed

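RNA sequencing of 12 U937 libraries gave 1 table per set of whole-number read counts per gene, deposited by the authors with no normalization. The submitters' processing notes name HISAT2, Cufflinks and the hg38 build. Which program counted reads, over which annotation and whether by strand is not given in the sources used here, nor are versions. Columns carry a group name and no replicate number, so library numbers follow column order and pair nothing. In set 1, 570 of 28395 rows had no symbol (0.0678% to 0.105% of counts per library) and stayed out of library sizes and tests. Total counts are given with the results, and precision is that of 3 libraries per group.

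The members, roles, partner lists and the rule for named genes were chosen with earlier results of these data known. Named members were up to 4 per role with the largest change past 0.05 and separated groups, those listed in set 2, a list of well-known members, and their paralogues. Partner genes were named likewise, up to 2 per list. HDAC3, SMARCE1, BRD9, BRD3OS and the members called lower after trend removal were named to complete a count, after their values were seen. Some members and markers are not reported here by name or in figures; counts and medians include them.

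Within each set, counts were filtered with filterByExpr (minimum count 10, minimum total 15), scaled by TMM and tested with edgeR 4.0.16 in R 4.3.3 (robust quasi-likelihood, Benjamini-Hochberg over all tested genes, 0.05). CPM are TMM-scaled, and RPKM divide them by the longest GENCODE v29 transcript. Standard errors come from the fold change and the F statistic. The antibodies were compared by the interaction of set and treatment, each set scaled on its own. Length and GC trends were removed per library by natural splines of 4 degrees of freedom each, entered as offsets. Other settings were library totals, DESeq2 1.42.0, no filter and each library left out. The scripts were tested on simulated counts.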

Additional observations from a re-analysis of the deposited data

Results flagged for a closer look

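The effect of the antagonist differed from that of the agonist, by the interaction of set and treatment (edgeR quasi-likelihood test over 867 shared genes, adjusted p under 0.05), in 11 members, in all of which the antagonist effect was the higher. Among them, the difference on the log2 scale was 1.34 for RERE, 1.16 for ARID1A, 0.70 for KAT14, 0.68 for ARID1B, 0.56 for ARID3A, 0.54 for NSD2, 0.48 for BRD3, 0.25 for SMARCD2 and 0.20 for CHD4. In the antagonist libraries RERE, ARID1A, ARID1B, ARID3A and NSD2 were higher than in their IgG libraries and in the agonist libraries lower than in theirs. With length and GC trends removed the difference was 0.28 for ARID1B, 0.34 for ARID3A and 0.15 for NSD2, and the antagonist changes of ARID1B (0.07) and ARID3A (0.01) and the agonist change of NSD2 (-0.01) did not pass. All 12 members are listed as lower with the agonist, which by itself favours a higher antagonist effect. The antagonist effect was called higher in 28.0% of the shared genes, and in 59.6% of those called lower with the agonist. The sets were run against separate IgG groups and the table of set 2 holds selected genes, so that a shift of zero in set 2 and a difference between the antibodies cannot be told apart for the smaller values. With both sets scaled over the shared genes only, a setting chosen after seeing the data, each of the 12 members kept its call or lack of one. The shared symbols are 902 of the 904 listed in set 2. The setting thus hardly alters the scaling of set 2 and cannot examine its zero.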

How the results depend on the processing

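No paired analysis was possible because the columns carry no replicate number. Against 33 members higher, 15 were higher with length and GC trends removed, and between 19 and 36 when 1 library was left out. Against 7 lower, 1 was lower with library totals, 4 with DESeq2, 15 with trends removed and between 1 and 7 when 1 library was left out. Against 31 partner genes lower, 12 were lower with library totals, 18 with DESeq2 and between 14 and 28 when 1 library was left out. With trends removed the sign turned in 18 of the 93 tested members. Those called before or after were CHD2 (-0.00022), KDM4B (-0.01), SMARCA4 (-0.10) and NSD1 (-0.15), and the difference between the antibodies turned for CHD4 (-0.067). The cause was not tested, and leaving 1 library out also makes the number of libraries smaller. In set 2 all 12 listed members were called lower in every other setting, except NSD2 with trends removed. Over all 904 listed genes, 400 were called lower in the main fit, 348 with trends removed and 399 or 400 in the other settings. Keeping these calls therefore goes with how the genes were listed and says little of the members. Depth limits what can be said of members near the filter such as CHD5, HDAC4 and HDAC9, and SMARCA1 and KDM4E had no counts.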

Other observations

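Polycomb genes, which write marks on H3K27 and H2A, gave 7 rises and 6 falls of 21 tested with the antagonist, with a median of 0.06 (15.6% and 20.5% of all tested genes rose and fell). EZH1, the alternative H3K27 methyltransferase, had 29.04, 33.9 and 30.1 CPM with IgG and 46.8, 49.1 and 48.9 CPM with the antagonist. Every antagonist library lay above every IgG library, a change of 0.64 ± 0.08 (SE), adjusted p = 0.000202. CBX7, a reader of methylated H3K27, had 17.4, 17.3 and 19.04 CPM with IgG and 25.3, 22.1 and 26.6 CPM with the antagonist and changed by 0.46 ± 0.09 (SE), adjusted p = 0.00271. Both were called in each of the other 10 settings, and with length and GC trends removed they stood at 0.57 and 0.30. The falls numbered 1 with library totals, with DESeq2, without IgG library 2 and without antagonist library 3. They numbered 2 without IgG library 1 and without antagonist library 1. With trends removed and without antagonist library 2 there were 3, and without IgG library 3 there were 6. The rises numbered 8 with library totals, 7 with DESeq2 and 5 with trends removed. With 1 library left out, 4 rose without antagonist library 1 or 3, and 6 without any other library.

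Among 14 genes of H3K9 methylation and DNA methylation 3 rose and 2 fell. TET3, which oxidises methylated cytosine, had 77.7, 87.0 and 85.2 CPM with IgG and 131, 127 and 135 CPM with the antagonist, separated groups and a change of 0.66 ± 0.06 (SE), adjusted p = 9.42e-05. CBX5, the heterochromatin protein HP1 alpha, had 189.9, 179 and 171 CPM with IgG and 247, 252 and 243 CPM with the antagonist and changed by 0.46 ± 0.06 (SE), adjusted p = 0.000283. In the agonist table CBX5 was lower, at -0.41, as were SUV39H1 (-0.43), UHRF1 (-0.49) and TRIM28 (-0.31), which did not pass with the antagonist (-0.09, 0.01 and -0.08). Of the other partner genes listed there, EPC2 (-0.67), PBRM1 (-0.43), SAP130 (-0.34), GATAD2A (-0.32) and BRPF1 (-0.32) were lower with the agonist too, in a table where 44.2% of genes were.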
